A study of Mus musculus with 6 samples.

Results

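The genes described here mark neural progenitors and radial glia: Pax6, Sox2, Nes, Vim, Fabp7, Eomes, Neurog2, Id1 and Id3. They are a list of 9 symbols chosen by name, with earlier results of these data known, and all 9 were among the 50508 gene symbols in the files and among the 19504 genes tested. RNA came from primary neurons of newborn C57BL/6J mice, and 3 libraries carried Kcna1-dCas9A (label sgKcna1) and 3 carried Ctrl-dCas9A (label sgLacZ). Both groups received a lentivirus encoding dCas9-VP160, a Cas9 that cannot cut DNA joined to an activator of transcription, under the Ef1alpha promoter, which is active in most cell types and is not restricted to neurons. The groups differed in the guide, which was directed at the Kcna1 promoter (guide sg19) or at the bacterial gene LacZ. The labels call the tissue hippocampus, whereas the methods of the study describe cortical cultures. The labels do not say whether the 3 libraries of a group came from separate cultures, so that p-values measure the spread between these libraries, which may be technical.

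Radial glia are the stem cells of the developing forebrain and persist in part as astrocytes and as adult neural stem cells. They carry the intermediate filament proteins nestin (Nes) and vimentin (Vim), the fatty acid binding protein Fabp7, and the transcription factors Sox2 and Pax6. Neurog2 is a proneural factor that starts neuronal differentiation, and Eomes marks the intermediate progenitors that follow. Id1 and Id3 encode inhibitors of differentiation, which bind E proteins and keep proneural factors from DNA, and which are known targets of bone morphogenetic protein (BMP) signalling. In a culture named as neurons these genes are known mainly from cells other than the mature neuron, and in bulk RNA fewer cells of a type and less RNA per cell cannot be told apart.

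Values are whole numbers that appear to be scaled to a common library total (per-million values, rounded), and sequencing depth is unknown. QuantSeq reads fall near the 3′ end of each transcript, so that the values are not divided by gene length and are compared between groups within a gene. Kcna1 was at 16, 16 and 16 in the control libraries and at 68, 47 and 65 in those with Kcna1-dCas9A, which gave a log2 fold change of 1.83 (SE 0.16, adjusted p = 0.03445, limma). Replicate 3 of Ctrl-dCas9A stood somewhat apart. The SD of its log2 difference from the other 2 control libraries was 0.457 and 0.427, against 0.301 between those 2 and 0.269 to 0.325 within Kcna1-dCas9A.

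The promoters of Fabp7 and Id3 are shown because these were the 2 members that passed the test across all genes. The RefSeq promoter table of GRCm38.p6 held 8 of the 9 members (Id1 was not among them), and the 250 bases before the listed start are given 5′ to 3′. Fabp7 lies on the plus strand with its window at chr10:57784673-57784922, and Id3 on the plus strand with its window at chr4:136143572-136143821. Capitals mark matches on either strand to the CCAAT box (CCAAT), the core of the RBPJ site (TGGGAA), the half-site of the cAMP response element (TGACG) and the E-box (CANNTG).
Fabp7 promoter: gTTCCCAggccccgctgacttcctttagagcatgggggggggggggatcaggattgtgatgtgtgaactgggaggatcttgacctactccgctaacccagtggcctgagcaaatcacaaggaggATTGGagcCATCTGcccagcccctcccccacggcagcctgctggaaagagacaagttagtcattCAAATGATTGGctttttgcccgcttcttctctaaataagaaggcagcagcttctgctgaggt
Id3 promoter: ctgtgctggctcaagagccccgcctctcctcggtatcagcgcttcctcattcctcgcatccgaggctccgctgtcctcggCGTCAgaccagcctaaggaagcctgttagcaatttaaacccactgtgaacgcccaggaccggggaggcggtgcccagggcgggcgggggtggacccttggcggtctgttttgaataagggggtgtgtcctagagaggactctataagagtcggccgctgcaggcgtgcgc
The Fabp7 window held 1 RBPJ core, which is the DNA motif of the Notch pathway, together with 2 E-boxes and 2 CCAAT boxes, none of which overlapped another. The Id3 window held 1 half-site of the cAMP response element and no match to the other 3 motifs. Among 32851 promoter windows of the same length in the table, 21.6% held the RBPJ core, 66.2% an E-box, 33.8% a CCAAT box and 17.8% the half-site, so that each motif is common. Of the 8 members in the table, Fabp7 was the only one with the RBPJ core, and Id3 shared the half-site with Pax6. These matches are letters in a window and not measured binding sites. The Fabp7 window had a GC content of 54.8% and the Id3 window one of 62.8%, against a median of 52.4% over all windows. The guide sg19 had no site with up to 4 mismatches next to an NGG PAM in the 300-base windows of these 8 members (fewest mismatches 10 to 12). Of all 32851 windows only 1 held such a site, and the median of the fewest mismatches was 11. The absence of a site is thus the usual result for a window and sets these members apart from no others.

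Of the 9 members, 2 fell in Kcna1-dCas9A (Fabp7 and Id3) and 0 rose at an adjusted p under 0.05, with 5 at an unadjusted p under 0.05 (limma on log2(value + 1), Benjamini-Hochberg over all 19504 genes tested). In the same fit 1.16% of all genes passed the threshold, 0.81% of all genes lower and 0.349% higher, and 23.2% were at an unadjusted p under 0.05, the share against which each count at that level is to be read. The 3 Kcna1-dCas9A libraries lay below the 3 Ctrl-dCas9A libraries without overlap for 5 members (Fabp7, Id3, Id1, Nes and Eomes). This was so for 13.3% of all genes tested. Of the 7 members whose mean value was 10 or more it was so for 4, against 23.9% of the 8050 genes at that level. The log2 fold change was below 0 for all 9 members, with a median of -0.41, against a median of -0.02 over all genes tested and -0.06 over genes with a mean of at least 10. Scaling by median-of-ratios or upper-quartile factors moved the latter median to 0.03 and 0.06, and all 9 members stayed below 0 under both. The balance of calls over all genes depended on the scaling, with 68 genes higher and 158 lower as deposited and 963 higher and 758 lower after median-of-ratios factors. Lower calls were then 3.89% and higher calls 4.94% of all genes, and Fabp7 and Id3 were again the 2 members among them. In a fit restricted to genes with a mean of at least 10, lower calls were 17.0% of genes and again included Fabp7 and Id3 of the 7 members that entered.

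**Figure D1:**
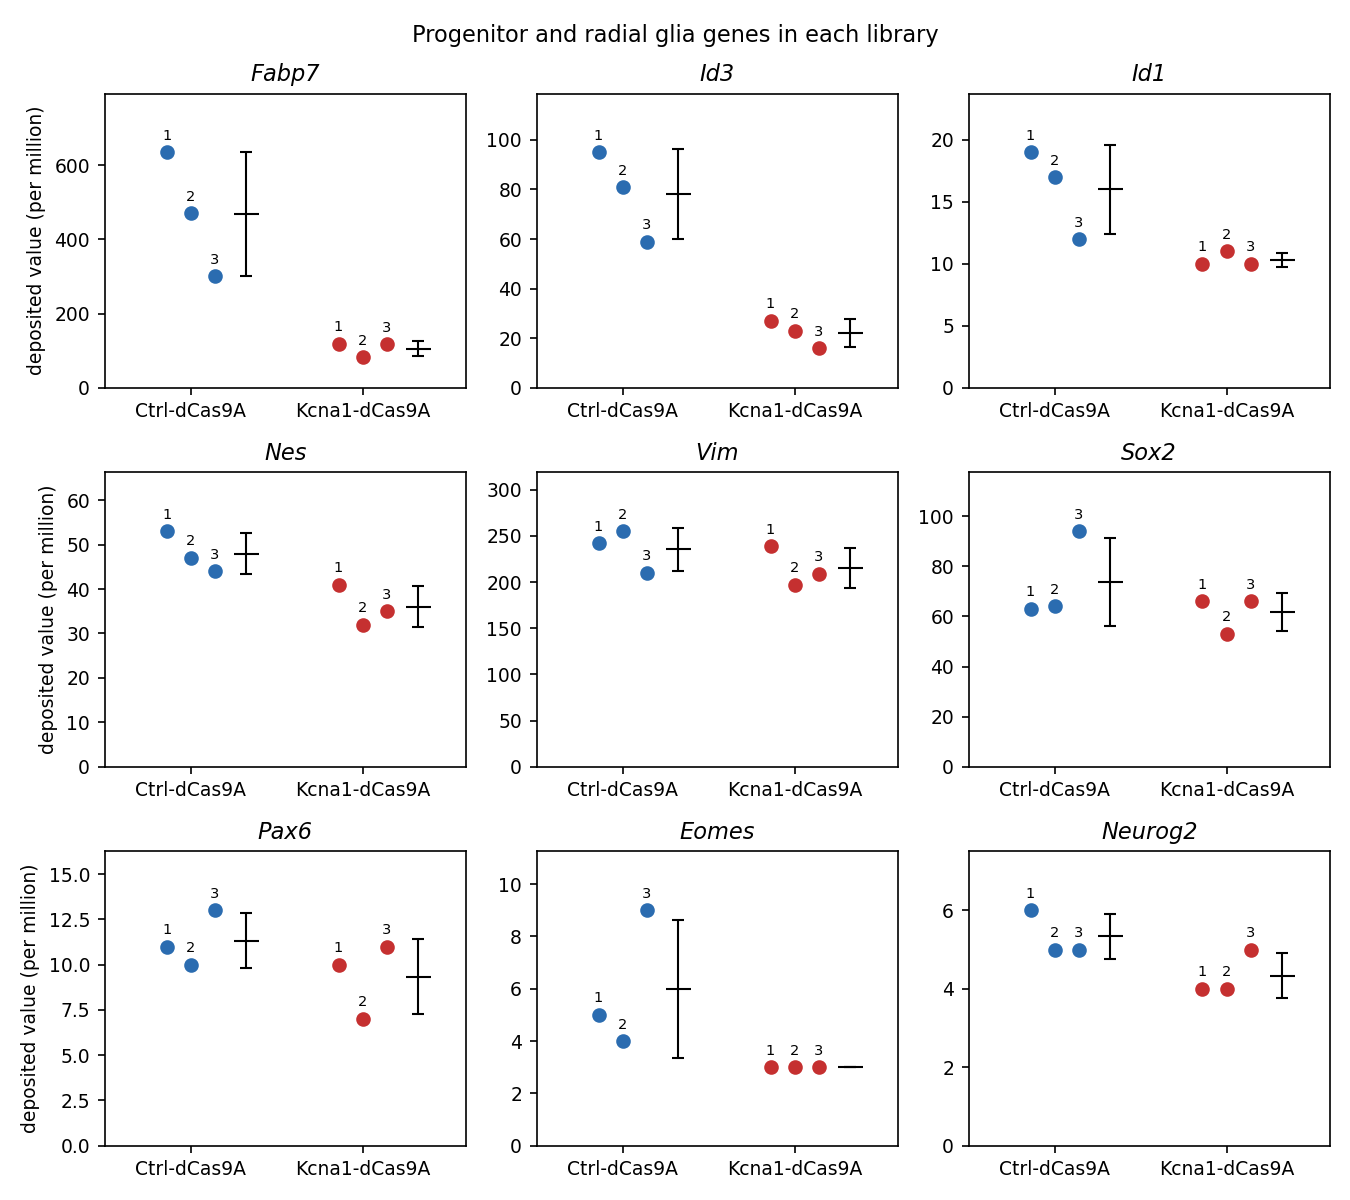
Deposited value (per-million scale, rounded) of each of the 9 members in each library, 1 panel per gene with its own axis. Points are libraries with their replicate number, and bars are the mean with SD of 3 libraries in Ctrl-dCas9A and Kcna1-dCas9A. Fabp7 was at 301 to 635 in Ctrl-dCas9A and at 82 to 118 in Kcna1-dCas9A, whereas the groups overlapped for Vim, Sox2, Pax6 and Neurog2.

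Fabp7, also called brain lipid binding protein, carries fatty acids in radial glia and astrocytes and was the member with the largest fitted decrease. Its value was 635, 471 and 301 in the control libraries and 118, 82 and 117 in those with Kcna1-dCas9A. The lowest control library was above the highest Kcna1-dCas9A library, and the control libraries were spread more widely. The control mean was 469.0 ± 167 and the Kcna1-dCas9A mean 105.7 ± 20.5 (SD, n = 3 each), which was 77.5% lower. The log2 fold change was -2.09 (SE 0.28, 95% CI -2.75 to -1.44, adjusted p = 0.04861, limma). It was the 11th lowest fold change of the 19504 genes and the 44th smallest p. Fabp3 and Fabp5, relatives of Fabp7 named because of their kinship, had log2 fold changes of 0.36 and 0.15, and their groups overlapped.

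Id3 was the other member that passed. Its value was 95, 81 and 59 in the control libraries and 27, 23 and 16 in those with Kcna1-dCas9A, with every Kcna1-dCas9A library under the lowest control. The mean was 78.3 ± 18.2 (SD, n = 3) against 22 ± 5.57 (SD, n = 3), 71.9% lower. The log2 fold change was -1.79 (SE 0.24, 95% CI -2.36 to -1.22, adjusted p = 0.04861, limma), the 37th lowest of the genes tested. Fabp7 and Id3 both sat close to the threshold. With 1 library left out, both passed only without Ctrl-dCas9A replicate 3 (adjusted p = 0.01809 for Fabp7 and 0.02123 for Id3) and neither passed in the other 5 fits (adjusted p up to 0.1435), while their log2 fold changes ranged from -2.38 to -1.84 and from -1.98 to -1.59 over all alternatives tried.

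Id1, which belongs to the same family as Id3, did not pass. It was at 19, 17 and 12 in the control libraries and at 10, 11 and 10 in those with Kcna1-dCas9A, so that the groups did not overlap but came within 1 unit of each other. Its mean was 16.0 ± 3.61 against 10.3 ± 0.58 (SD, n = 3 each), and the log2 fold change was -0.56 (SE 0.20, 95% CI -1.04 to -0.09, adjusted p = 0.1477). Without Ctrl-dCas9A replicate 3 it passed (adjusted p = 0.03228, limma), in a fit that called 8.12% of all genes lower. The other 2 family members, named after their values were seen, also did not pass and did not overlap between groups. Id2 was at 323, 301 and 223 against 178, 205 and 167 (log2 fold change -0.61, adjusted p = 0.07501). Id4 was at 23, 16 and 12 against 7, 7 and 6 (log2 fold change -1.19, adjusted p = 0.05564). All 4 Id genes were thus lower in every Kcna1-dCas9A library than in any control library, Id3 alone passed the test, and all 4 stayed below 0 under each other scaling. Of all genes 13.3% were lower without overlap, and 23.9% of those with a mean of at least 10.

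The ratios between the Id genes were also compared. The ratio of Id1 to Id3 was 0.204 ± 0.005 in Ctrl-dCas9A and 0.491 ± 0.128 in Kcna1-dCas9A, without overlap, and the ratio of Id3 to Id2 was 0.276 ± 0.016 against 0.120 ± 0.029 (SD, n = 3 each), also without overlap. Each ratio had an exact two-sided permutation p of 0.10, the smallest that 3 against 3 libraries can give, and the ratios were chosen after the values were seen.

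The intermediate filament genes Nes and Vim gave smaller differences. Nes, which encodes nestin, was at 53, 47 and 44 in the control libraries and at 41, 32 and 35 in those with Kcna1-dCas9A. The groups did not overlap, the mean was 25% lower, and the log2 fold change was -0.41 (SE 0.14, 95% CI -0.73 to -0.09, adjusted p = 0.1308). Vim was at 242, 255 and 210 in the control libraries and at 239, 197 and 209 in those with Kcna1-dCas9A, with overlapping groups. Its log2 fold change was -0.13 (SE 0.12, 95% CI -0.40 to 0.14, adjusted p = 0.5133). The estimates of Fabp7, Id3, Eomes, Id1 and, narrowly, Nes lay below this interval, which is not a test of the difference between genes. Gfap, the intermediate filament gene of astrocytes and named as a relative of both, was at 63, 45 and 57 against 46, 48 and 70.

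Sox2 and Pax6 are the transcription factors of radial glia, and neither passed. Sox2 was at 63, 64 and 94 in the control libraries and at 66, 53 and 66 in those with Kcna1-dCas9A, and the groups overlapped. The high control value was that of replicate 3. The log2 fold change of Sox2 was -0.24 (SE 0.18, 95% CI -0.67 to 0.20, adjusted p = 0.5133). It ranged from -0.33 to -0.05 when 1 library was left out, and was -0.05 without Ctrl-dCas9A replicate 3. Sox2 lies within the transcript Sox2ot, which was at 32, 29 and 34 against 33, 24 and 32. How reads in the overlap were assigned to either gene is not given in the sources used here, so reads of the overlapping transcripts could not be separated. Pax6 was at 11, 10 and 13 in the control libraries and at 10, 7 and 11 in those with Kcna1-dCas9A (log2 fold change -0.27, 95% CI -0.78 to 0.24, adjusted p = 0.5133), and its groups overlapped. Its fold change ranged from -0.39 to -0.10 when 1 library was left out.

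Eomes and Neurog2, the genes of the step from radial glia to intermediate progenitors, were near the lower end of the measured range. Eomes was at 5, 4 and 9 in Ctrl-dCas9A and at 3 in every Kcna1-dCas9A library, with a log2 fold change of -0.74 (SE 0.30, 95% CI -1.46 to -0.03, adjusted p = 0.1961). Leaving out 1 library gave a range of -0.95 to -0.45, with -0.45 without Ctrl-dCas9A replicate 3. The groups did not overlap, but by a single rounded unit. Neurog2 was at 6, 5 and 5 against 4, 4 and 5, with overlapping groups and a log2 fold change of -0.25 (95% CI -0.75 to 0.25, adjusted p = 0.5133). At these levels a single rounded unit is a large step relative to the values, and the intervals of both genes are wide.

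**Figure D2:**
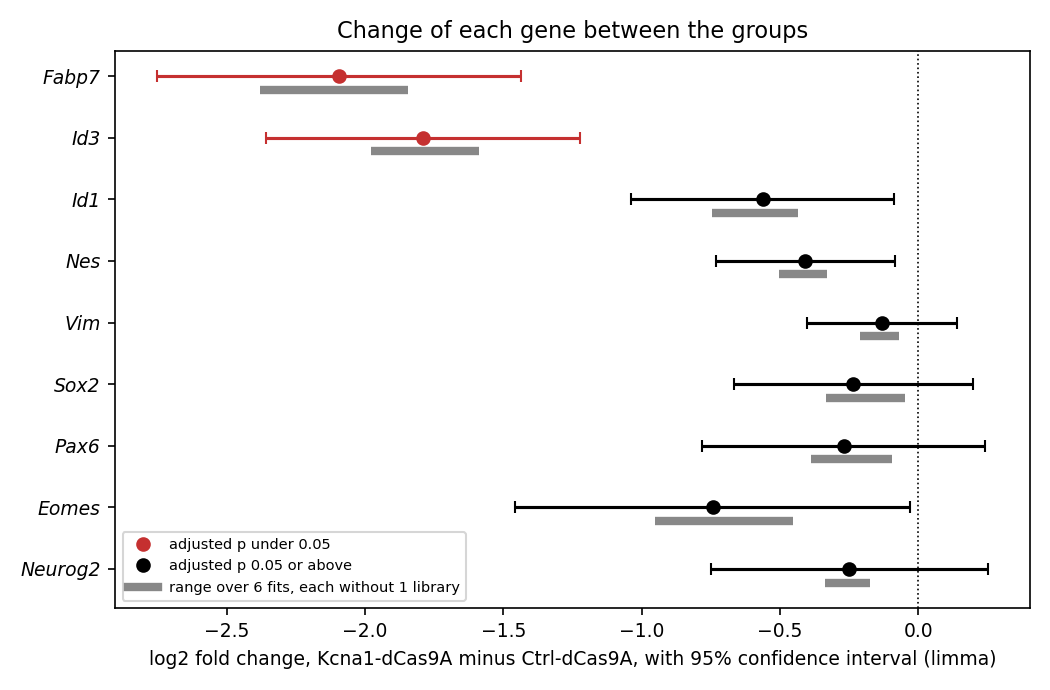
Log2 fold change of each member (Kcna1-dCas9A over Ctrl-dCas9A, on log2(value + 1)) with its 95% CI from limma, and in grey the range over the 6 fits that leave out 1 library. All 9 estimates were below 0, from -2.09 for Fabp7 to -0.13 for Vim, and the intervals of Sox2, Pax6, Neurog2 and Vim included 0.

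Set against Vim in the same library, which removes the scale of the library, Fabp7 and Id3 were again lower. The ratio of Fabp7 to Vim was 2.62, 1.85 and 1.43 in the control libraries and 0.494, 0.416 and 0.560 in those with Kcna1-dCas9A. The ratio of Id3 to Vim was 0.393, 0.318 and 0.281 against 0.113, 0.117 and 0.077. Neither ratio overlapped between the groups (exact two-sided permutation p = 0.10 for each, the smallest possible). The ratio of Nes to Vim, 0.204 ± 0.018 against 0.167 ± 0.005 (SD, n = 3 each), did not overlap either. The ratio of Sox2 to Vim was 0.320 ± 0.111 against 0.287 ± 0.025 (SD, n = 3 each) and overlapped (exact permutation p = 1). Between Fabp7 and Id3 the ratio was 5.867 ± 0.793 against 5.083 ± 1.973 (SD, n = 3 each) with overlapping groups (exact permutation p = 0.50). The ratio of Id1 to Vim was 0.079, 0.067 and 0.057 against 0.042, 0.056 and 0.048, a separation that lies within the rounding of Id1. The ratios to Vim were chosen after the values were seen. Their groups were apart for Fabp7, Id3 and Nes, barely so for Id1, and overlapped for Sox2.

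A wider list of 25 radial glia and neural stem cell genes was listed in the files in full. Of these, 2 fell (Hes5 and Sox9) and 0 rose, the groups did not overlap for 17 genes, all lower in Kcna1-dCas9A, and the median log2 fold change was -0.58. Hes5, an effector of Notch signalling that keeps progenitors undifferentiated, was at 197, 211 and 199 in the control libraries and at 112, 114 and 115 in those with Kcna1-dCas9A (log2 fold change -0.83, SE 0.08, adjusted p = 0.04223, limma). Sox9, a transcription factor of radial glia and astrocytes, was at 235, 214 and 210 against 155, 141 and 151 (log2 fold change -0.56, SE 0.09, adjusted p = 0.04961, limma). Over all genes 0.81% were called lower and 13.3% were lower without overlap, and among genes with a mean of at least 10 the counts without overlap were 14 of 20 on the list against 23.9%. The number called depended on the processing. It was 9 of 25 after median-of-ratios factors (3.89% of all genes called lower) and 13 of 20 in the fit of genes with a mean of at least 10 (17.0% called lower), but 1 of 25 with a pseudocount of 0.5. It was 0 of 25 without the intensity trend, with the replicate block and in 5 of the 6 fits that left out a library, and 11 of 25 without Ctrl-dCas9A replicate 3, a fit in which 8.12% of all genes were called lower. Several genes that did not pass as deposited are given here because of their values. Msi1, an RNA binding protein of neural stem cells, was at 42, 41 and 19 against 11, 13 and 10 (adjusted p = 0.05564). Hopx, known from outer radial glia, was at 78, 54 and 26 against 20, 18 and 10 (adjusted p = 0.07952). Prom1, the gene of the stem cell surface protein prominin, was at 14, 12 and 16 against 17, 13 and 18 with overlapping groups.

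Genes of intermediate progenitors and of the proneural programme, the setting of Eomes and Neurog2, went in both directions. Of 14 listed genes 13 were tested (Neurog1 was listed at 0), 0 passed (limma, 5 at an unadjusted p under 0.05), 2 lay lower and 2 higher without overlap, against 13.3% and 8.98% of all genes, and the median log2 fold change was 0.00 (0.08 after median-of-ratios factors, when 2 passed higher and 1 lower). With those factors 4.94% of all genes were called higher and 3.89% lower. The genes of highest value were Neurod1, a driver of neuronal differentiation, at 200, 170 and 229 against 228, 206 and 212, and Hes6, which counteracts Hes1, at 127, 110 and 122 against 141, 165 and 153 (adjusted p = 0.09864). Insm1, known from basal progenitors and chosen for its value, was at 22, 18 and 12 against 6, 5 and 7 (log2 fold change -1.36, adjusted p = 0.05306). Rnd2, a small GTPase downstream of Neurog2 in migrating neurons and chosen likewise, was at 66, 56 and 96 against 141, 123 and 156 (log2 fold change 0.97, adjusted p = 0.05564).

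The BMP pathway, which acts upstream of the Id genes, was examined from a list of 19 genes, of which 17 were tested and Bmp4 and Bmp6 were listed at 0. Of these 0 passed (limma, 6 at an unadjusted p under 0.05, and 1 lower call after median-of-ratios factors, against 3.89% of all genes), 5 were lower without overlap against 13.3% of all genes, and the median log2 fold change was -0.49. Over the 7 genes with a mean of at least 10 the median was -0.22 and 2 were lower without overlap, near the 23.9% of all genes at that level. The 2 genes of highest value were the receptor Bmpr2, at 89, 93 and 91 against 74, 78 and 83 (adjusted p = 0.2189), and the signal transducer Smad5, at 68, 59 and 59 against 63, 76 and 57. The receptor Acvr1, chosen after its values were seen, was at 25, 26 and 15 against 10, 9 and 6 (adjusted p = 0.05564). The E proteins and proneural factors that Id proteins bind or oppose gave 0 of 7 tested genes past the threshold (2 at an unadjusted p under 0.05). Their median was -0.14, which was -0.05 after median-of-ratios and -0.02 after upper-quartile factors. All 7 had a mean of at least 10, and 3 were lower without overlap (Tcf4, Tcf12 and Neurod6, named after their values were seen) and 0 higher. Of all genes at that level 23.9% were lower and 15.9% higher without overlap. Tcf4, the E protein of highest value, was at 2862, 2760 and 2650 against 2615, 2431 and 2479, and Neurod2 was at 558, 560 and 680 against 601, 546 and 565. Among 16 tested relatives of the members, 0 passed (7 at an unadjusted p under 0.05) and the median was -0.02, which turned to 0.04 after median-of-ratios factors. The 2 of highest value were Sox11, at 3728, 3806 and 3413 against 3478, 3281 and 3398, and Sox4, at 1386, 1428 and 1192 against 1086, 992 and 1018 (adjusted p = 0.08193).

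**Figure D3:**
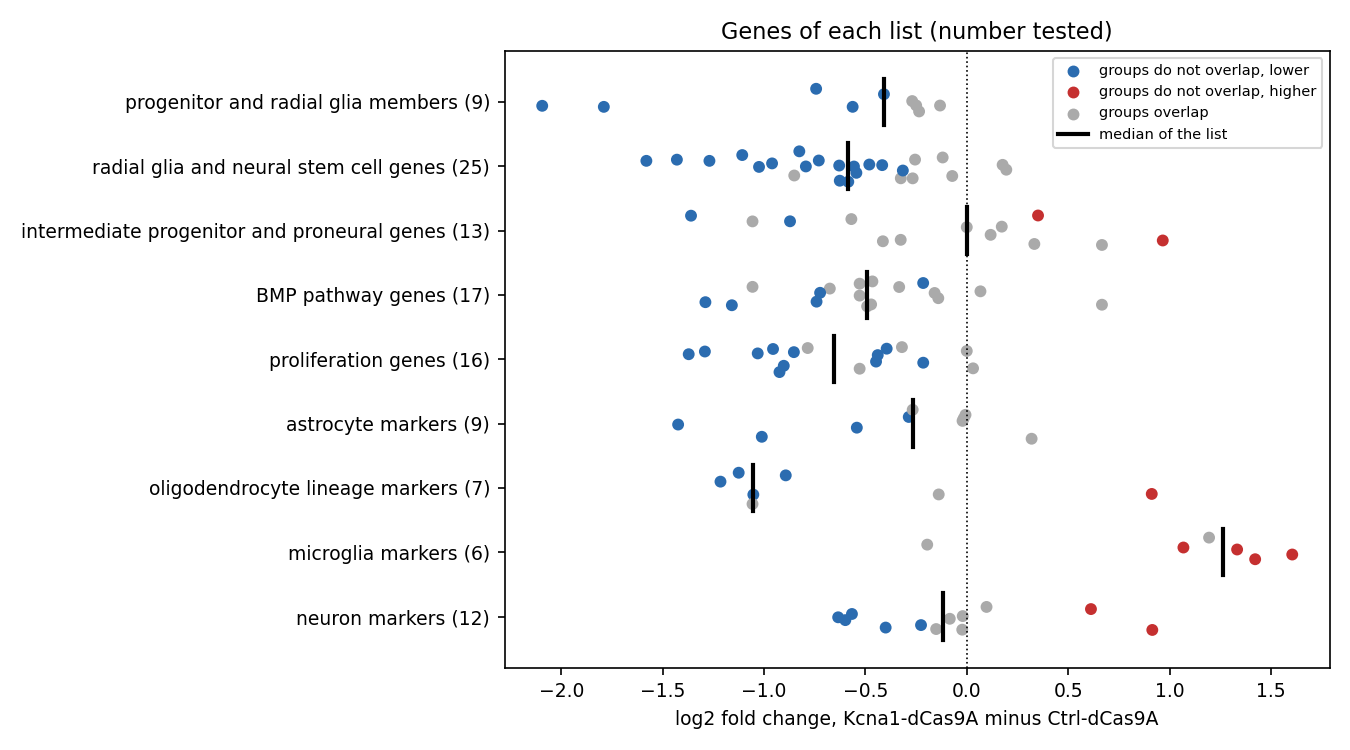
Log2 fold change of every tested gene in each list (Kcna1-dCas9A over Ctrl-dCas9A), 1 row per list, with the median as a black bar. Blue and red points are genes whose groups did not overlap, lower or higher in Kcna1-dCas9A, and grey points are genes whose groups overlapped. The median was -0.41 for the 9 members, -0.58 for radial glia genes, -0.12 for neuron markers and 1.26 for microglia markers.

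Some markers of other cells also differed between the groups, and their part in the result was not tested. Of 9 tested astrocyte markers 2 fell, with a summed value of 578 to 594 in Ctrl-dCas9A and 424 to 464 in Kcna1-dCas9A (Gjb6 was listed at 0). Aqp4, the water channel of astrocyte endfeet, was at 53, 54 and 39 against 18, 17 and 17 (adjusted p = 0.04861), and the metabolic enzyme Aldoc was at 170, 168 and 160 against 117, 112 and 112 (adjusted p = 0.04961). Of the other 7, Slc1a2 and Gja1 were lower without overlap and did not pass, and 5 overlapped, with log2 fold changes of 0.32 for S100b, -0.01 for Aldh1l1, -0.02 for Slc4a4, -0.02 for Gfap and -0.27 for Fgfr3. Of 7 tested oligodendrocyte lineage markers 1 fell (Olig2, at 19, 20 and 16 against 9, 7 and 9, adjusted p = 0.04966), and their sum was 66 to 98 against 40 to 44 (Mog was listed at 0). Olig1, a factor of the same lineage, was at 59, 49 and 34 against 20, 24 and 15 (adjusted p = 0.05564). Mbp, the myelin gene of mature oligodendrocytes and named after its values were seen, lay the other way at 3, 3 and 2 against 7, 4 and 7 without overlap (adjusted p = 0.1131). Of 6 tested microglia markers 1 rose (C1qa, at 9, 6 and 6 against 23, 22 and 24, adjusted p = 0.04861), with a sum of 22 to 25 against 53 to 72, while the microglial markers Tmem119 and P2ry12 were listed at 0. Aif1, another gene of microglia, was at 10, 6 and 12 against 18, 17 and 26 (adjusted p = 0.07674). Of the remaining microglia markers, named after their values were seen, C1qb and Cx3cr1 were higher without overlap and did not pass. C1qc, at 2, 2 and 1 against 1, 2 and 1, and Csf1r, at 0, 4 and 2 against 4, 3 and 8, overlapped between the groups. Of 8 fibroblast and meningeal markers 1 fell (Igfbp2, at 211, 185 and 128 against 64, 79 and 80, adjusted p = 0.04961), with a sum of 154 to 242 against 90 to 105. That sum was mostly Igfbp2, and the other 7 markers overlapped one by one and summed to 26 to 32 against 24 to 26. Of 4 tested ependymal markers 1 fell (Foxj1, at 7, 5 and 4 against 0, 0 and 1, adjusted p = 0.04961), with a sum of 15 to 21 against 9 to 16 and Ccdc153 and Tmem212 at 0. Rsph1 at 12, 7 and 8 against 11, 7 and 12, Dnah5 and Dnah11 overlapped between the groups. Endothelial and mural markers summed to 10 to 12 against 6 in each library, with Cdh5 at 0 and 0 of 7 past the threshold (0 at an unadjusted p under 0.05). Over all genes 0.81% were called lower and 0.349% higher, and 13.3% were lower and 8.98% higher without overlap. These calls are from limma over all genes, and like those of Fabp7 and Id3 none of them held with a pseudocount of 0.5, with the replicate block or in the 5 fits that left out a library other than Ctrl-dCas9A replicate 3.

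The label of the cultures as neurons was checked in the same way. The 12 neuron markers were all above 0 and summed to 7496 to 8138 in Ctrl-dCas9A and 8001 to 9242 in Kcna1-dCas9A, with 0 past the threshold (limma, 7 at an unadjusted p under 0.05, and 2 higher and 2 lower calls after median-of-ratios factors). After those factors 4.94% of all genes were called higher and 3.89% lower. The higher sum came from Tubb3, and the other 11 markers summed to 5533 to 5744 in the controls and 4651 to 5057 in Kcna1-dCas9A, lower in every library. Of the 12, 9 had a log2 fold change below 0 and 5 were lower without overlap (Map2, Snap25, Dcx, Neurod6 and Gad1, named after their values were seen), while Tubb3 and Slc17a7 were higher without overlap. All 12 had a mean of at least 10, and of all genes at that level 23.9% were lower and 15.9% higher without overlap. Dcx, which marks young neurons, was at 958, 961 and 785 against 640, 614 and 491 (adjusted p = 0.05564), and the synaptic gene Snap25 at 94, 89 and 86 against 66, 59 and 56 (adjusted p = 0.05274). Stmn2 was at 1810, 1756 and 1924 against 1850, 1685 and 1648, and Tubb3 was at 1862, 1752 and 2605 against 3855, 3221 and 4591 (adjusted p = 0.05564). Hippocampus markers (6 tested, 0 past the threshold, 3 at an unadjusted p under 0.05, sums of 1597 to 1735 against 1462 to 1734) and layer markers of the cerebral cortex (9 tested, 0 past the threshold, 3 at an unadjusted p under 0.05, sums of 457 to 529 against 387 to 422) were both present, so that these lists did not settle the region. Among the hippocampal genes Prox1 was at 146, 160 and 107 against 89, 101 and 75 (adjusted p = 0.09468) and Zbtb20 at 1359, 1441 and 1358 against 1516, 1250 and 1378. Among the cortical genes Bcl11b was at 292, 279 and 224 against 191, 182 and 162 (adjusted p = 0.05564) and Fezf2 at 43, 46 and 56 against 61, 62 and 71 (adjusted p = 0.1197). Of 16 proliferation genes 0 passed (11 at an unadjusted p under 0.05, and 3 lower calls after median-of-ratios factors), 11 were lower without overlap, the median was -0.66 and the sum was 1025 to 1109 against 827 to 894. Over all genes the shares were 23.2% at an unadjusted p under 0.05, 3.89% called lower after median-of-ratios factors and 13.3% lower without overlap, and of the 7 proliferation genes with a mean of at least 10, 6 were lower without overlap against 23.9%. Ccnd2 was at 823, 803 and 909 against 763, 686 and 734, and Top2a, a topoisomerase of dividing cells, was at 41, 49 and 60 against 37, 32 and 40.

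The genes most like each member across the 6 libraries were ranked by Pearson r of log2(value + 1) among 8049 other genes with a mean of at least 10. For Fabp7 they were Rhobtb3 (r = 0.9984) and Ufd1l (r = 0.9983), and for Id3 they were Srsf1 (r = 0.9988) and Glud1 (r = 0.9983). Id1 was followed by Arrdc3 (0.9978) and Tor1a (0.9971), and Nes by Elovl6 (0.9965) and Cramp1l (0.9949), all as r. For Fabp7 1128 genes had an r over 0.9, for Id3 1157, for Id1 1108 and for Nes 666, whereas for Vim it was 86 genes, for Sox2 31 and for Pax6 55. The nearest genes were Setd1a (0.9933) and Csrnp2 (0.9872) for Vim, Mmp16 (0.9788) and Pcyt1b (0.9772) for Sox2, and Mydgf (0.9864) and Gmps (0.9738) for Pax6. These r describe 6 points that share the group difference and the composition of each library, so that genes which differ between the groups in the same direction tend to score high with each other.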

How the data were processed

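Gene expression was compared between 3 Kcna1-dCas9A and 3 Ctrl-dCas9A libraries, grouped by their labels. The authors prepared QuantSeq 3′ libraries, and deposited for each gene a score in whole numbers, treated here as a rounded per-million value. The scaling is not given in the sources used here. It was inferred from library totals of 999047 to 999717 and from a replicate variance of 0.698 (Ctrl-dCas9A) and 0.499 (Kcna1-dCas9A) times the mean at means of 4 to 8. Depth is therefore unknown, and no count test, interval or floor that needs it was used. The submitters' processing notes name STAR 2.7, featureCounts, DESeq2 and mm10, whereas the methods of the study name Bowtie2 and mm9. Harvest times also differ between sections of those methods.

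limma 3.58.1 (in R 4.3.3, two-sided, moderated by eBayes with a trend on intensity after lmFit) was run on log2(value + 1) for the 19504 genes above 0 in at least 1 library, with group as the only factor and a Benjamini-Hochberg adjusted p of 0.05 as threshold. Fold changes are on the log2(value + 1) scale, which understates those of low genes. The script was tested on simulated data. Ratios were tested with exact permutation tests (scipy 1.17.1). Between 14788 and 15417 genes were above 0 per library, and Gm42418 held 15.3% to 20.2% of the values.

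The members and lists were chosen with earlier results of these data known. All members were named, and from each list the genes past the threshold, or with fewer than 2 such genes the 2 of highest mean value, together with the 2 genes nearest to each member with a mean of at least 10. Of the lists with few or low values not every such gene is printed, and genes named outside this rule are marked. Promoter sequences are from RefSeq (GRCm38.p6), and sg19 was located in NCBIM37. Alternatives were other pseudocounts, filters, scalings and variance models, the replicate block, another threshold and each library left out.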

Additional observations from a re-analysis of the deposited data

How the results depend on the processing

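All 9 members kept a log2 fold change below 0 in all 17 alternatives (16 for Eomes and Neurog2, which the filter at a mean of 10 removed). Fabp7 and Id3 were the 2 members called as deposited. No member was called with a pseudocount of 0.5 (0, with 5 at an unadjusted p under 0.05, limma) or without the intensity trend (0, with 5), with adjusted p of 0.05077 and 0.05077, and of 0.0515 and 0.05065, for Fabp7 and Id3. With each library left out, 0 to 3 members were called. The 3 without Ctrl-dCas9A replicate 3 were Fabp7, Id3 and Id1, in a fit where 14.2% of all genes were called and 8.12% called lower, and each of the other 5 fits called 0, with 2 to 4 at an unadjusted p under 0.05.

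The number of genes called was 226 as deposited and moved to 10 (pseudocount 0.5), 475 (pseudocount 5), 1543 (mean of at least 1), 2289 (mean of at least 10), 2405 (no filter, where the median variance was exactly 0), 1721 (median-of-ratios factors, 963 higher and 758 lower), 2058 (upper-quartile factors, 1226 higher and 832 lower), 1768 (without Gm42418), 2884 (robust variance) and 2258 (adjusted p under 0.1). With a library left out it ranged from 0 to 2711. The count of 2711 was without Ctrl-dCas9A replicate 3, and the other 5 fits gave 0 called genes with 3332 to 3853 at an unadjusted p under 0.05. The causes were not tested.

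With the replicate block, 0 genes and 0 members were called (limma), with 4326 genes and 4 members at an unadjusted p under 0.05 and an adjusted p of 0.1106 for Fabp7 and Id3. Same-numbered libraries correlated in their deviations from the group means by 0.014, 0.114 and 0.154 over 8050 genes. Differently numbered libraries correlated by -0.156 to 0.099. Each same-numbered value was the highest for its Kcna1-dCas9A library, but Ctrl-dCas9A replicate 1 correlated more with Kcna1-dCas9A replicate 2 (0.099) than with replicate 1. The labels give only a number, and these values do not settle whether the libraries were paired. Unknown depth and rounding limit what Eomes, Neurog2, Pax6 and Id1 can show.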
